A study of Homo sapiens with 30 samples.

Results

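RNA levels of 9 lysosome and autophagy genes were followed in A549, an epithelial cell line from a human lung carcinoma. The genes were LAMP1, LAMP2, CTSD, CTSB, CTSL, HEXA, MCOLN1, SQSTM1 and TFEB. They were chosen by name with earlier results of these data known. All 9 were found by their Ensembl identifiers among the 60675 gene rows. All 9 were abundant enough to enter the test, which covered 17701 genes. Cells received vehicle or an ethanol extract of 1 of 4 tonifying formulas of Korean medicine for 24 h, and every library carries the same batch letter in its title. Extract doses were 20 µg/mL (low), 100 µg/mL (medium) and 500 µg/mL (high). Every dose of Sibjeondaebo-tang and of Palmul-tang had 3 libraries, as did the vehicle, those of Samul-tang had 2 and those of Sagunja-tang 1, in all 30 libraries in 13 groups. By tradition Palmul-tang is Sagunja-tang and Samul-tang joined, and Sibjeondaebo-tang adds further herbs to Palmul-tang. The vehicle contained 0.1% DMSO according to the sample labels and 2% according to the series text, and the files do not settle which holds.

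The lysosome is the acidic compartment in which cells break down proteins, lipids and sugars. In autophagy, cargo is enclosed in a membrane, the autophagosome, which then fuses with a lysosome. TFEB is a transcription factor that mTORC1 keeps in the cytoplasm when nutrients are plentiful. When it is released into the nucleus it binds a short palindromic motif, the CLEAR element, built around the E-box CACGTG, in the promoters of many lysosomal genes. SQSTM1 encodes p62, a receptor that carries ubiquitin-tagged cargo into the autophagosome and is itself degraded there, and its gene is also a known target of the stress factor NRF2. A549 cells carry a mutant KEAP1, the repressor of NRF2, so that NRF2 is constitutively active in this line. RNA was measured here, and neither protein levels nor degradation in the lysosome were.

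Promoter windows were examined for the CLEAR element because it links TFEB to its targets among these genes. RefSeq windows on GRCh38.p14, from 250 bases before to 50 after an annotated start, matched 6 of the 9 genes, and LAMP2, CTSB and HEXA had none in the table used. The stretches below hold every match to the E-box family in the LAMP1, MCOLN1 and CTSD windows, 5′ to 3′ on the strand of the gene, with the longest match in capitals. They lie at chr13:113297039-113297246 on the plus strand, chr19:7522424-7522631 on the plus strand and chr11:1763957-1763986 on the minus strand.
LAMP1: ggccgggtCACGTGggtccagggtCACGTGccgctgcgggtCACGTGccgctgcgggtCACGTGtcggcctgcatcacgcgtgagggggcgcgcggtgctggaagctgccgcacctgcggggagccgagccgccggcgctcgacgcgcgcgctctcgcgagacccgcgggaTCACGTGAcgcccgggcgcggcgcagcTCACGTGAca
MCOLN1: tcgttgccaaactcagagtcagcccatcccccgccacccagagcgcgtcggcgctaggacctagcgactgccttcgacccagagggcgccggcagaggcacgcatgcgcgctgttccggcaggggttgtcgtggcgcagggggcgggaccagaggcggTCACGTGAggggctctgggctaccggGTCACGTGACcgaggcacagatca
CTSD: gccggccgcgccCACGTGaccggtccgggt

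4 motifs were searched on both strands, and the first 3 are nested, so that each longer match also counts for the shorter ones. The full palindrome of the CLEAR element, which is TCACGTGA with a G before and a C after it, was found once, in the MCOLN1 window, starting 16 bases before the annotated start, and 0.353% of the 35116 RefSeq windows of the same length hold it. The shorter TCACGTGA was found at 2 places in LAMP1 and at 2 in MCOLN1, against 0.98% of all windows with a match. The E-box CACGTG was found at 6 places in LAMP1, at 2 in MCOLN1 and at 1 in CTSD, against 7.26% of all windows. TGACNNNGC, the core of the element that NRF2 and AP-1 family factors bind, was found once in LAMP1, once in CTSL and at 2 places in CTSD, against 13.3% of all windows. No match to any of the 4 was found in the 3 windows each of SQSTM1 and TFEB. A match is only a run of letters in a window of 300 bases, and binding was not measured.

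Per kilobase of exon, CTSD, the main aspartic protease of the lysosome, had the highest median level of the 9 genes over the 30 libraries, at 172.8 CPM per kb. CPM are counts scaled to the size of a library, as edgeR gives them. SQSTM1 followed at 81.2 CPM per kb and the cysteine proteases CTSL and CTSB at 53.4 and 33.8. The membrane glycoproteins LAMP2 and LAMP1 stood at 21.1 and 16.6 CPM per kb. HEXA, the alpha subunit of beta-hexosaminidase, which degrades GM2 ganglioside, stood at 8.82 CPM per kb. MCOLN1, the calcium channel of the lysosomal membrane, and TFEB were the least abundant, at 3.28 and 2.22 CPM per kb. LAMP2 isoforms are not separated in gene counts. All other values below are CPM per gene and serve to compare groups, not genes.

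The genes lie on 9 chromosomes of GRCh38, and the counts cover their exons as annotated in GENCODE release 29. CTSD lies at chr11:1752752-1764573 (minus strand), SQSTM1 at chr5:179806398-179838078 (plus), and CTSL at chr9:87725519-87731393 (plus). LAMP1 lies at chr13:113297241-113323672 (plus), LAMP2 at chrX:120427827-120469365 (minus), and CTSB at chr8:11842524-11869448 (minus). HEXA lies at chr15:72340919-72376476 (minus), MCOLN1 at chr19:7522626-7534009 (plus), and TFEB at chr6:41683978-41736259 (minus). Exons of 4 members overlap exons of other genes. SQSTM1 overlaps MGAT4B, at a median of 103 CPM, and MRNIP, at 26.9 CPM, both on the opposite strand. MCOLN1 shares its strand with exons of PNPLA6, which had a median of 43.1 CPM and so stood above MCOLN1 itself. CTSD and HEXA overlap 5 further annotated genes with medians of at most 1.74 CPM. The library kit keeps the strand, but whether counting used it is not given in the sources used here, so reads of overlapping genes may have been divided between them.

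Epithelial keratins were abundant in every library, with KRT8 at a median of 3606 CPM, and the epithelial marker EPCAM stood at a median of 21 CPM. The summed level of the 9 A549 markers, which include the enzymes AKR1B10, AKR1C1 and ALDH1A1, ran from 17880 to 20990 CPM. Of 8 markers of other cell types, 4 stayed under 1 CPM in every library, among them PTPRC, the pan-leukocyte marker, at up to 0.226 CPM, and CDH5, an endothelial cadherin, at up to 0.0315 CPM. The others were detected in every library, with HBB, a haemoglobin chain, at 9.73 to 49.6 CPM and DCN at 4.12 to 6.89 CPM. CD14 stood at 1.96 to 3.29 CPM and COL1A1 at 1.05 to 2.6 CPM. The highest HBB value was in 1 library of the low dose of Palmul-tang. The labels number the replicates without saying whether they were separate cultures, so p-values measure only how these libraries vary, and that spread may be technical. Between the high and low dose of Sibjeondaebo-tang 38.4% of all genes tested passed, and between vehicle and the low or medium dose of Sibjeondaebo-tang and Palmul-tang the shares ran from 36% to 37.9%. The counts of members below are therefore given beside the share of all genes. As the members were chosen with earlier results of these data known, the counts describe these genes and do not test them as a set. "Passed" means an adjusted p under 0.05 in edgeR's quasi-likelihood test, with Benjamini-Hochberg adjustment over all 17701 genes. Some counts of members below use an unadjusted p under 0.05. The share of all genes at that looser threshold is not given, so these counts have no like share beside them. The share of all genes without overlap between groups is not given either. Where groups are said below not to overlap, this describes the libraries and adds no separate evidence.

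Between 20 and 500 µg/mL of Sibjeondaebo-tang, 6 of the 9 genes rose and none fell. SQSTM1 and CTSD rose the most, by 42.9% and 37.4%, followed by CTSL at 19.3% and LAMP1 at 16.8%, and HEXA and CTSB rose by 7.89% and 6.87%. LAMP2, MCOLN1 and TFEB did not pass. In this comparison 18.5% of all genes tested rose, and 32% of the 9078 protein-coding genes with a mean of at least 10 CPM rose. The median change over the 9 genes was 0.11 on the log2 scale, against -0.0104 over all genes tested. The median over the abundant protein-coding genes, of which 32% rose and 19.8% fell, is not given.

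SQSTM1 stood at 611, 576 and 576 CPM in the 3 low-dose libraries of Sibjeondaebo-tang, at 653, 618 and 618 CPM at the medium dose and at 884, 845 and 791 CPM at the high dose. The 3 high-dose libraries were the highest of all 30, and the groups did not overlap. The log2 change from low to high dose was 0.52 ± 0.043 (SE, n = 3 libraries per dose), with an edgeR adjusted p of 4.56e-11. CTSD stood at 536, 507 and 499 CPM at the low dose and at 510, 518 and 550 CPM at the medium dose, so these doses overlapped. At the high dose it stood at 692, 720 and 706 CPM, again above every other library, with a log2 change of 0.46 ± 0.044 (SE, n = 3) against the low dose and an edgeR adjusted p of 6.99e-10. CTSL, which cleaves proteins in the lysosome and can also be secreted, stood at 128, 124 and 120 CPM at the low dose and at 148, 147 and 150 CPM at the high dose. Its log2 change was 0.25 ± 0.039 (SE, n = 3; edgeR adjusted p = 4.79e-06). LAMP1, a major glycoprotein of the lysosomal membrane, stood at 96.7, 94.4 and 97.9 CPM at the low dose and at 115.3, 112.2 and 109.9 CPM at the high dose. The high-dose libraries lay above all others of the study, and the log2 change was 0.22 ± 0.043 (SE, n = 3; edgeR adjusted p = 9.16e-05).

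**Figure D1:**
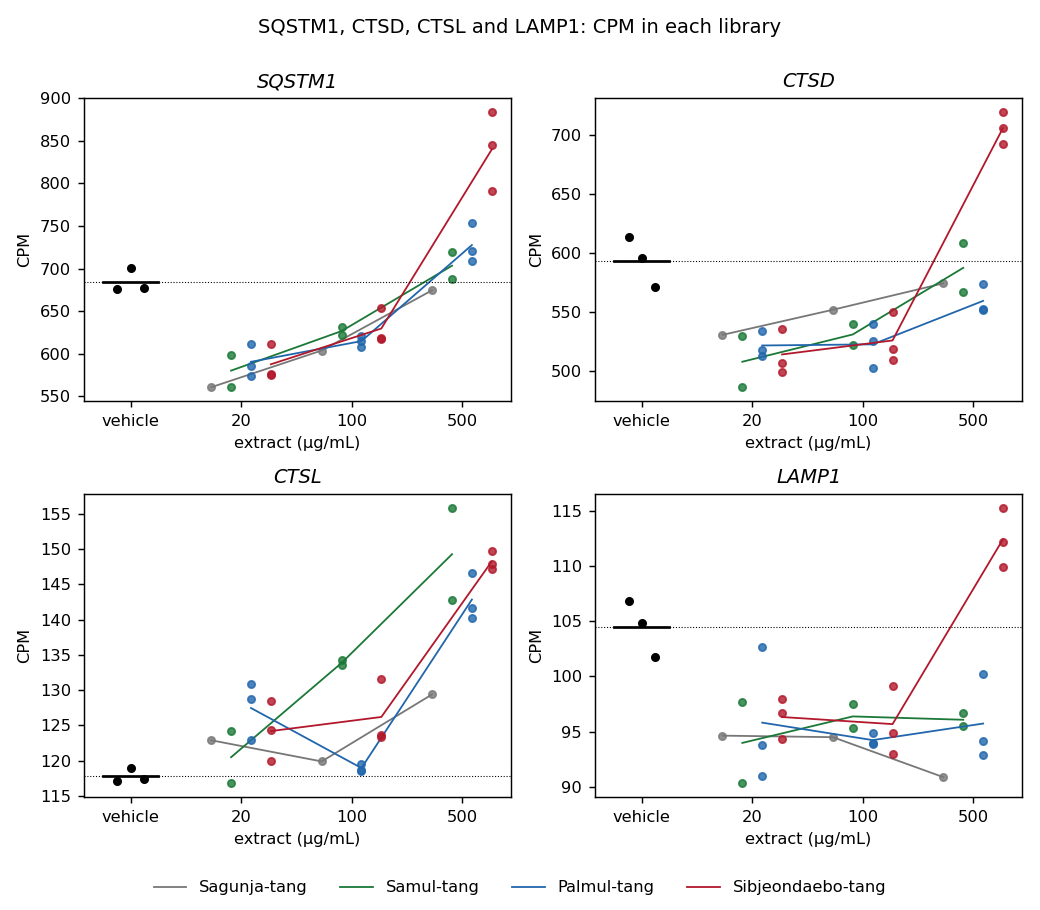
CPM of SQSTM1, CTSD, CTSL and LAMP1 (y axes, which do not start at 0) in each library against extract dose in µg/mL (x axis, evenly spaced), with points for libraries, coloured lines through group means and a black bar and dotted line for the vehicle mean. SQSTM1, CTSD and LAMP1 were highest in the 3 high-dose libraries of Sibjeondaebo-tang, while CTSL reached its highest value, 155.8 CPM, in a high-dose library of Samul-tang.

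HEXA and CTSB changed less and lay closer to the threshold. HEXA stood at 106.2, 114.3 and 114.2 CPM in the low-dose libraries of Sibjeondaebo-tang and at 123.6, 118.7 and 118.8 CPM at the high dose, a log2 change of 0.11 ± 0.038 (SE, n = 3; edgeR adjusted p = 0.0227). CTSB, a cysteine protease and peptidase, stood at 253, 256 and 247 CPM at the low dose and at 279, 267 and 261 CPM at the high dose, a log2 change of 0.096 ± 0.038 (SE, n = 3; edgeR adjusted p = 0.0427). Neither group pair overlapped, but neither call was stable. With no filter on low counts the edgeR adjusted p was 0.0611 for CTSB, whereas HEXA still passed. With only the compared groups in the fit the adjusted p was 0.0629 for HEXA and 0.0869 for CTSB. Without replicate 1 of the low dose it was 0.135 for HEXA and 0.0553 for CTSB, and the CTSB call was also lost without replicate 1 of the high dose (0.0902) and without replicate 2 (0.0525) or 3 (0.135) of the low dose.

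The 3 genes that did not pass differed in how well the data bound their change. LAMP2 differed by 0.054 on the log2 scale between the doses of Sibjeondaebo-tang, with a 95% interval from -0.05 to 0.159. MCOLN1 differed by 0.023, with an interval from -0.124 to 0.17, and TFEB by 0.098, with an interval from -0.031 to 0.227. TFEB stood at 12.6, 12.4 and 12.1 CPM at the low dose and at 13.0, 13.2 and 13.6 CPM at the high dose. The test was not passed (edgeR adjusted p = 0.233). Its groups did not overlap, but the share of all genes without overlap is not given. The interval of TFEB, a gene of low level, still allows a change as large as the one measured for LAMP1.

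Under Sibjeondaebo-tang the step that passed was the one from 100 to 500 µg/mL. Between the medium and the high dose the same 6 genes rose, where 30.6% of all genes tested passed in either direction. The log2 changes were 0.42 for SQSTM1, 0.42 for CTSD, 0.23 for LAMP1 and 0.23 for CTSL. Between the low and the medium dose none of the 9 passed in edgeR's test, 1 reached an unadjusted p under 0.05, and 0.0113% of all genes tested passed. SQSTM1 was that gene, at a log2 difference of 0.1 with a 95% interval from 0.0119 to 0.187. The sum of the 9 A549 markers, not all of which are epithelial markers, also differed. It ran from 18640 to 19400 CPM in the low-dose libraries and from 20060 to 20990 CPM in the high-dose libraries. Of these 9 markers 4 rose (KRT8, KRT18, KRT19 and AKR1B10) and 2 fell (CDH1 and ALDH1A1). The summed markers of other cell types ran from 19.7 to 25.2 CPM at the low dose and from 22.4 to 31 CPM at the high dose. HBB, DCN, CD14 and COL1A1 made up most of that sum, and PTPRC and CDH5 were at or near 0. None of the 5 markers of other cell types that were tested passed. The part of either set of markers in the result was not tested. In a bulk sample, a change in the number of cells that express a gene and a change per cell cannot be told apart.

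Under Palmul-tang 2 of the 9 genes, SQSTM1 and CTSL, rose between low and high dose, and 3.47% of all genes tested passed in this comparison (1.46% rose, and 2.46% of the abundant protein-coding genes did). SQSTM1 went from 612, 586 and 574 CPM at the low dose through 622, 615 and 608 CPM at the medium dose to 753, 709 and 721 CPM at the high dose. The high-dose libraries lay above all others of this formula, with a log2 change of 0.3 ± 0.043 (SE, n = 3; edgeR adjusted p = 2.04e-05). CTSL stood at 129, 131 and 123 CPM at the low dose, stood below that range at the medium dose with 118.6, 119.6 and 118.7 CPM, and stood at 146.6, 141.7 and 140.2 CPM at the high dose. Its change from low to high dose was 0.16 ± 0.039 on the log2 scale (SE, n = 3; edgeR adjusted p = 0.00995). That call was lost with only the compared groups in the fit (0.0831), without replicate 1 of the high dose (0.0807) and without replicate 3 of the low dose (0.129). Against the medium dose both genes rose as well, SQSTM1 by 0.24 and CTSL by 0.26 on the log2 scale, where 0.859% of all genes tested passed. Between low and medium dose none of the 9 passed and 1 reached an unadjusted p under 0.05, with 0.00565% of all genes tested passing.

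The other 7 genes did not pass between the low and high dose of Palmul-tang. CTSD stood at 534, 513 and 518 CPM at the low dose and at 552, 573 and 553 CPM at the high dose. The log2 difference of 0.1 had a 95% interval from 0.0118 to 0.19 (edgeR adjusted p = 0.26). These groups did not overlap, but the share of all genes without overlap is not given. CTSB and TFEB lay lower at the high dose, at log2 differences of -0.09 and -0.18, with adjusted p of 0.215 and 0.114 in the same test. TFEB stood at 13.3, 12.4 and 13.3 CPM at the low dose and at 11.3, 11.5 and 11.5 CPM at the high dose. LAMP1 and LAMP2 differed by less than 0.01 on the log2 scale, with intervals from -0.0877 to 0.0865 and from -0.0952 to 0.113.

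Under Samul-tang 3 of the 9 genes, CTSL, SQSTM1 and CTSD, rose between low and high dose, and 1.34% of all genes tested passed (0.604% rose, and 1.02% of the abundant protein-coding genes did). CTSL stood at 116.8 and 124.2 CPM at the low dose, at 134.2 and 133.5 CPM at the medium dose and at 142.7 and 155.8 CPM at the high dose. Doses did not overlap, and the log2 change from low to high was 0.31 ± 0.048 (SE, n = 2; edgeR adjusted p = 0.000243). SQSTM1 stood at 599 and 562 CPM at the low dose, 631 and 622 CPM at the medium dose and 719 and 688 CPM at the high dose, with a log2 change of 0.28 ± 0.053 (SE, n = 2; edgeR adjusted p = 0.00292). CTSD stood at 529 and 486 CPM at the low dose and at 608 and 567 CPM at the high dose, with a log2 change of 0.21 ± 0.054 (SE, n = 2; edgeR adjusted p = 0.0376). With 2 libraries per dose, leaving out 1 decided 2 of these calls. Without replicate 2 of the high dose the adjusted p was 0.107 for SQSTM1 and 0.44 for CTSD, and without replicate 3 of the low dose it was 0.133 and 0.387. CTSD was also lost without replicate 3 of the high dose (0.0514) and with only the compared groups in the fit (0.0601), whereas CTSL passed under all 10 alternatives run. None of the 9 passed between low and medium dose, where no gene of the 17701 did and 2 members reached an unadjusted p under 0.05. None passed between medium and high dose either, where 0.339% of all genes tested passed. An unadjusted p under 0.05, a looser threshold than that of this share, was reached by 3 members.

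Sagunja-tang had a single library per dose, so its values have no replicate check and no test was made. SQSTM1 stood at 560.8 CPM at the low dose, 603.9 at the medium dose and 674.6 at the high dose, and the first of these was the lowest of all 30 libraries. CTSD stood at 530.6, 551.9 and 574.3 CPM in the same order, and CTSL at 122.9, 119.9 and 129.4 CPM. CTSB had its lowest value of the study, 223.1 CPM, in the high-dose library, against 248.6 and 256.8 CPM at the low and medium dose. LAMP1 stood at 94.6, 94.5 and 90.9 CPM, LAMP2 at 114.9, 116.5 and 108.1, and HEXA at 110.6, 112 and 107.9. MCOLN1 stood at 13.1, 13.1 and 12.4 CPM and TFEB at 13, 13.5 and 12.2 CPM.

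**Figure D2:**
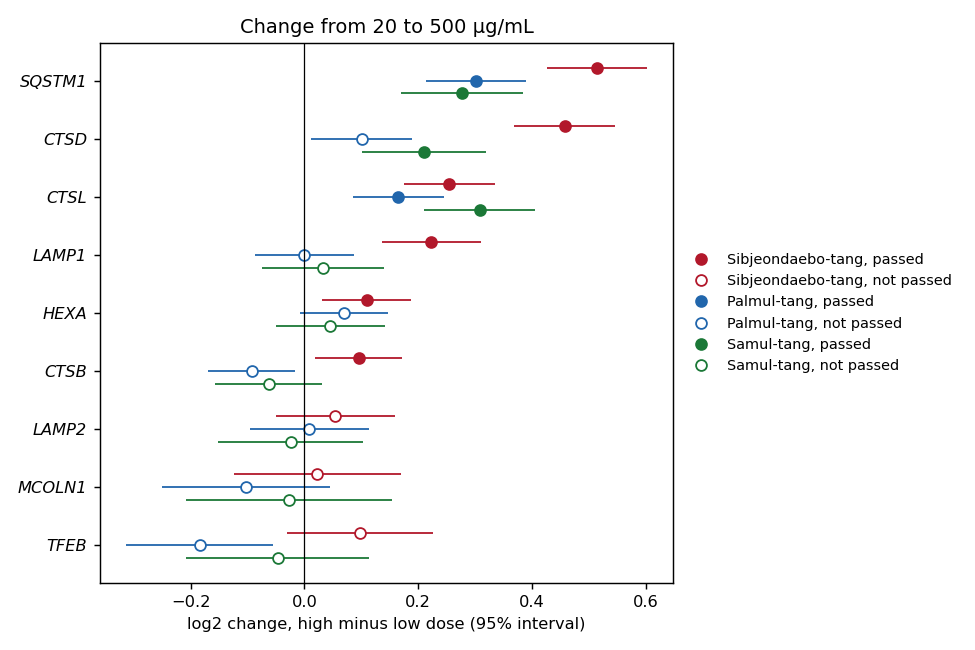
Log2 change from 20 to 500 µg/mL (x axis) of each of the 9 genes (y axis) for Sibjeondaebo-tang (red), Palmul-tang (blue) and Samul-tang (green), with 95% intervals as bars and filled points for genes that passed edgeR's test. SQSTM1 and CTSL passed in all 3 formulas, and LAMP1, HEXA and CTSB passed for Sibjeondaebo-tang and not for the other formulas.

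Whether the formulas differed was tested directly. At the high dose, Sibjeondaebo-tang stood above Palmul-tang in 6 of the 9 genes and below it in none, and 30.3% of all genes tested passed in this comparison (14.3% were higher, and 25.4% of the abundant protein-coding genes were). CTSD was higher by 0.34 ± 0.044 (SE, n = 3) on the log2 scale (edgeR adjusted p = 4.82e-07), LAMP1 by 0.23 ± 0.043 (9.06e-05), SQSTM1 by 0.21 ± 0.043 (0.00038) and CTSB by 0.18 ± 0.038 (0.000319). TFEB was higher by 0.22 ± 0.065 (0.0105) and HEXA by 0.11 ± 0.038 (0.0243), the latter call being lost without replicate 2 of the high dose of Palmul-tang (0.173) and with only the compared groups in the fit (0.106). The libraries of the 2 formulas did not overlap in any of the 6 genes. These were picked by the same comparison, and the share of all genes without overlap is not given, so this adds no separate evidence. CTSL did not pass and differed by 0.053, with a 95% interval from -0.0266 to 0.133, nor did LAMP2 and MCOLN1. At the low and at the medium dose none of the 9 genes, and none of the 17701 genes tested (0% at either dose), passed between these formulas in edgeR's test, and 0 and 1 members reached an unadjusted p under 0.05. Samul-tang and Palmul-tang at the high dose did not differ past the threshold in any of the 9 genes, 0 of which reached an unadjusted p under 0.05, and 0.192% of all genes tested passed. The 95% interval of their difference was from -0.147 to 0.0492 for SQSTM1 and from -0.0288 to 0.17 for CTSD.

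The change from low to high dose was larger under Sibjeondaebo-tang than under Palmul-tang for 5 genes, with 14.9% of all genes tested passing this test of the difference (5.59% in the same direction, and 10.3% of the abundant protein-coding genes). The difference of the log2 changes was 0.36 ± 0.062 (SE) for CTSD, 0.22 ± 0.06 for LAMP1 and 0.19 ± 0.053 for CTSB, with edgeR adjusted p of 0.000115, 0.0101 and 0.0138. It was 0.21 ± 0.061 for SQSTM1 (edgeR adjusted p = 0.0145) and 0.28 ± 0.09 for TFEB (0.0299). Without replicate 1 of the low dose of Palmul-tang the SQSTM1 value was 0.19 with an adjusted p of 0.0517, and 3 of the 5 calls remained. TFEB had changes of opposite sign in these formulas, neither of which passed alone. Its call was lost without replicate 1 of the high dose (0.055) or replicate 1 (0.0664) or 3 (0.0552) of the low dose of Palmul-tang, without replicate 3 of the low dose of Sibjeondaebo-tang (0.06) and with DESeq2 (0.0742). Against Samul-tang the dose change of Sibjeondaebo-tang was larger for CTSD, by 0.25 ± 0.069, and for SQSTM1, by 0.24 ± 0.068 (edgeR adjusted p = 0.0251 and 0.0298), where 6.34% of all genes tested passed. HEXA passed the test from low to high dose under Sibjeondaebo-tang and not under the other formulas, but the difference of its dose changes did not pass. It was 0.04 for Sibjeondaebo-tang minus Palmul-tang, with an interval from -0.0701 to 0.151 (edgeR adjusted p = 0.689), and 0.0642 for Sibjeondaebo-tang minus Samul-tang, with an interval from -0.0593 to 0.188 (0.594). The dose changes of CTSL did not differ past the threshold between any 2 of the 3 formulas, with intervals from -0.023 to 0.203 for Sibjeondaebo-tang minus Palmul-tang and from -0.18 to 0.0739 for Sibjeondaebo-tang minus Samul-tang. Between Samul-tang and Palmul-tang none of the 9 dose changes passed, 1 reached an unadjusted p under 0.05, and 0.00565% of all genes tested passed.

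Against vehicle the picture depended on the dose, and the comparisons of all formulas share the same 3 vehicle libraries. LAMP2, which is needed for the fusion of autophagosomes with lysosomes, stood at 92, 100 and 103.8 CPM in vehicle and at 108.1 to 125.6 CPM in the extract libraries, with all 27 above all 3 of the vehicle. MCOLN1 stood at 15.8, 15.4 and 15.9 CPM in vehicle and at 10.7 to 14.3 CPM in the extract libraries, with all 27 below. TFEB stood at 15.3, 15.4 and 13.5 CPM in vehicle, and 26 of 27 extract libraries lay below all 3. CTSB stood at 268, 276 and 286 CPM in vehicle, and again 26 of 27 extract libraries lay below. The share of all genes that separate from the vehicle in this way is not given. Such counts of libraries, here and below, therefore have no like share beside them. The offset was present from the low dose on, and no comparison between doses of 1 formula passed for LAMP2 or MCOLN1. The vehicle libraries carry codes that begin differently from those of all extract libraries. The codes of Samul-tang and Sagunja-tang also begin differently from those of Palmul-tang and Sibjeondaebo-tang, so the comparison of Samul-tang with Palmul-tang at the high dose crosses that division, whereas doses of 1 formula share their start. What the codes mark is not stated, and if they mark separate preparations, an effect of any extract, or a difference between formulas on either side of that division, and a difference between preparations cannot be told apart.

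**Figure D3:**
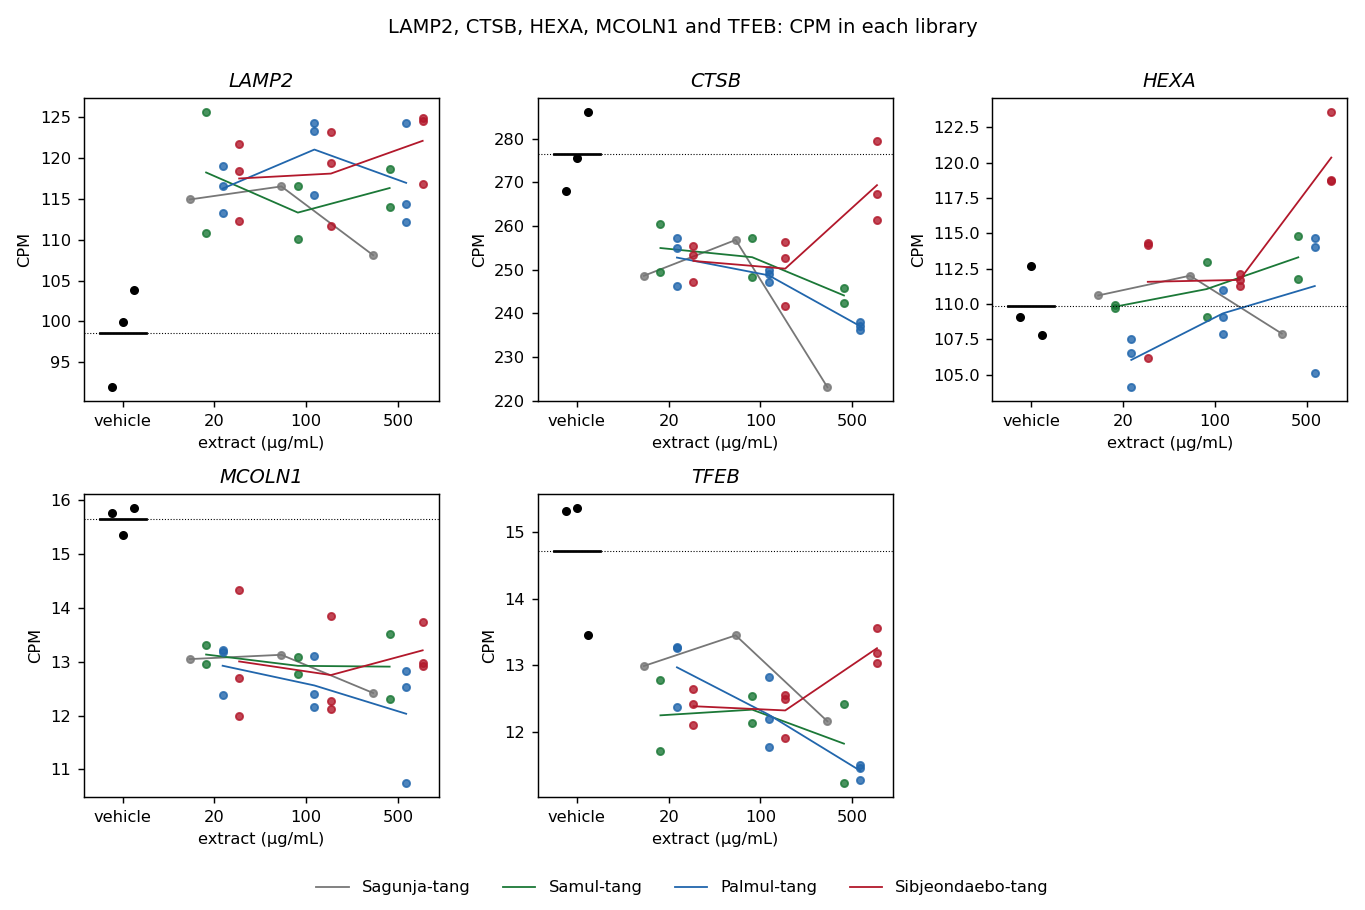
CPM of LAMP2, CTSB, HEXA, MCOLN1 and TFEB (y axes, which do not start at 0) in each library against extract dose in µg/mL (x axis, evenly spaced), with points for libraries, coloured lines through group means and a black bar and dotted line for the vehicle mean. All 27 extract libraries lie above the vehicle for LAMP2 and below it for MCOLN1, at every dose. The share of all genes that separate in this way is not given.

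At the low dose, 7 of the 9 genes passed against vehicle under Sibjeondaebo-tang, 8 under Palmul-tang and 7 under Samul-tang, while 36.9%, 36% and 30.7% of all genes tested passed. The share of abundant protein-coding genes is not given for the low and medium dose. At the high dose it was larger than that of all genes, at 56.7%, 57.1% and 45.3% in the same order of formulas. In each formula 6 members fell, namely SQSTM1, CTSD, MCOLN1, TFEB, CTSB and LAMP1. LAMP2 rose in each, and CTSL rose under Palmul-tang. The shares of all genes that rose or fell in these comparisons are not given separately. SQSTM1 stood at 676, 701 and 677 CPM in vehicle, above all 9 low-dose libraries, which ran from 560.8 to 611.9 CPM. Its log2 change against vehicle was -0.22 ± 0.043 (SE) under Sibjeondaebo-tang, -0.21 ± 0.043 under Palmul-tang and -0.24 ± 0.049 under Samul-tang, with edgeR adjusted p of 0.000131, 0.000214 and 0.00032. CTSD stood at 613, 596 and 571 CPM in vehicle and at 486.2 to 535.7 CPM in the low-dose libraries, with log2 changes of -0.21, -0.19 and -0.22 in the same order of formulas. LAMP2 rose by 0.25, 0.24 and 0.26, and MCOLN1 changed by -0.27, -0.28 and -0.25. HEXA did not pass in any of these comparisons, with log2 differences between -0.051 and 0.022.

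**Figure D4:**
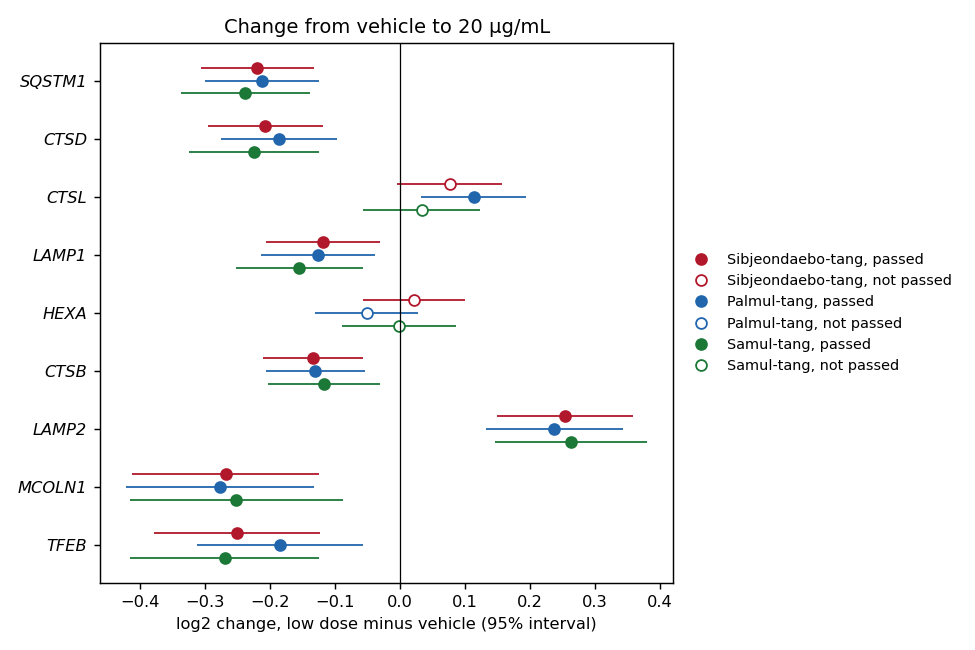
Log2 change from vehicle to 20 µg/mL of extract (x axis) of each of the 9 genes (y axis) for Sibjeondaebo-tang (red), Palmul-tang (blue) and Samul-tang (green), with 95% intervals as bars and filled points for genes that passed edgeR's test. SQSTM1 and CTSD lie below 0 and LAMP2 above 0 in all 3 formulas, which share their vehicle libraries.

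At the medium dose against vehicle, 8 genes passed under Sibjeondaebo-tang, under Palmul-tang 7 and under Samul-tang 6, against 36.8%, 37.9% and 24% of all genes tested. SQSTM1 passed under Sibjeondaebo-tang and Palmul-tang, at log2 changes of -0.12 and -0.15, and not under Samul-tang, at -0.13 (edgeR adjusted p = 0.0533). All 9 medium-dose libraries lay below the vehicle in SQSTM1, at 603.9 to 653.3 CPM, and in CTSD, at 502.3 to 551.9 CPM.

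At the high dose, 7 of the 9 genes passed against vehicle under Sibjeondaebo-tang, of which 6 rose and MCOLN1 fell. In either direction 41.8% of all genes tested and 56.7% of the abundant protein-coding ones passed. Of the latter 33.3% were higher and 23.4% lower. CTSL rose by 0.33 ± 0.04 on the log2 scale (SE, n = 3; edgeR adjusted p = 4.09e-08), LAMP2 by 0.31 ± 0.052, SQSTM1 by 0.3 ± 0.043 and CTSD by 0.25 ± 0.044. HEXA rose by 0.13 ± 0.039 and LAMP1 by 0.1 ± 0.043, with edgeR adjusted p of 0.00618 and 0.0484. The LAMP1 call was lost without replicate 2 (0.0607) or 3 (0.133) of the vehicle and without replicate 1 of the high dose (0.0905). MCOLN1 changed by -0.25 ± 0.073 (edgeR adjusted p = 0.00657).

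Under the high dose of Palmul-tang 6 genes passed against vehicle (37.1% of all genes tested and 57.1% of the abundant protein-coding ones did). CTSL and LAMP2 were higher and CTSB, TFEB, MCOLN1 and LAMP1 lower. Of the abundant protein-coding genes 30.3% were higher and 26.8% lower. CTSL rose by 0.28 ± 0.04 and LAMP2 by 0.25 ± 0.052 on the log2 scale, and MCOLN1, TFEB and CTSB changed by -0.38 ± 0.072, -0.37 ± 0.064 and -0.22 ± 0.038. LAMP1 changed by -0.13 ± 0.043 (edgeR adjusted p = 0.0188), and it no longer passed without replicate 1 of the vehicle (0.0829), without replicate 1 (0.0951) or 2 (0.0635) of the high dose, or with only the compared groups in the fit (0.0764). Under Samul-tang 5 genes passed (29.2% of all genes tested and 45.3% of the abundant protein-coding ones did). Of the abundant protein-coding genes 25.1% were higher and 20.3% lower. CTSL rose by 0.34 ± 0.044 and LAMP2 by 0.24 ± 0.058, and TFEB, MCOLN1 and CTSB changed by -0.32 ± 0.072, -0.28 ± 0.081 and -0.18 ± 0.042. The MCOLN1 call was lost without replicate 2 of the high dose (0.146) and the TFEB call without replicate 3 (0.0551). SQSTM1 and CTSD, low against vehicle at 20 µg/mL, did not pass at 500 µg/mL of either formula. Their intervals were from 0.000898 to 0.176 and from -0.174 to 0.00426 for Palmul-tang, and from -0.0582 to 0.138 and from -0.114 to 0.0854 for Samul-tang. CTSL was above vehicle in all 9 high-dose libraries, which ran from 129.4 to 155.8 CPM against 117.1, 118.9 and 117.4 CPM.

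Over the 12 extract groups the members' profiles differed, given here as a description of group means that share libraries and scaling. SQSTM1 and CTSD correlated at a Pearson r of 0.904, SQSTM1 and CTSL at 0.858, and LAMP1 and HEXA at 0.856. MCOLN1 correlated with CTSB at 0.755 and with TFEB at 0.742, but with SQSTM1 at -0.241. Among 11193 genes compared, those most like SQSTM1 were EMC3, a subunit of the membrane protein insertase of the endoplasmic reticulum (r = 0.972), GPC1, a heparan sulfate proteoglycan (0.971, 120.7 CPM at the low and 186.6 CPM at the high dose of Sibjeondaebo-tang), and FTH1, the ferritin heavy chain (0.97, 5301 and 7717 CPM). Those most like CTSD were the splicing regulator PTBP1 (0.987), BOD1, a protein of chromosome biorientation (0.981), and the glutathione transferase GSTP1 (0.977). Those most like CTSL were the carbonic anhydrase CA12 (0.955), TP53I11 (0.952) and CSTB (0.939), the cytosolic inhibitor of cysteine cathepsins. These r rest on 12 points, 1 of which is the high dose of Sibjeondaebo-tang, where many genes moved.

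A further 157 genes of the same pathways, in 11 lists, were set beside the members, and 156 were tested. Between the low and high dose of Sibjeondaebo-tang 45 rose and 25 fell, so that 44.9% passed, against 38.4% of all genes tested and 51.8% of the abundant protein-coding ones. Their median log2 change was 0.0691, against -0.0104 over all genes. The median over the abundant protein-coding genes is not given. In Palmul-tang 0 rose and 4 fell (2.56%, against 3.47% of all genes tested), and in Samul-tang 1 rose and 1 fell (1.28%, against 1.34%). These shares lie near those of all genes. No list was tested as a set, and the counts of single lists under Sibjeondaebo-tang that follow are to be read against 18.5% higher and 19.9% lower among all genes tested, and 32% and 19.8% among the abundant protein-coding ones.

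Of 16 subunits of the V-ATPase, the proton pump that acidifies the lysosome, 7 rose and 1 fell under Sibjeondaebo-tang. ATP6V0D1 rose by 0.29 ± 0.043 (SE, n = 3), ATP6V1F by 0.25 ± 0.059 and ATP6V0E1 by 0.24 ± 0.048 on the log2 scale, and ATP6V0A2 fell by 0.24. Of 10 lipid enzymes and their activators 4 rose and none fell. These were NPC2, a cholesterol carrier, by 0.35 ± 0.055, PLA2G15, a lysosomal phospholipase, by 0.28 ± 0.095, PPT1, which removes palmitate from proteins, by 0.27 ± 0.046, and LIPA, the acid lipase, by 0.2 ± 0.04. Of 13 proteases and inhibitors 5 rose and 3 fell, with CSTB up by 0.28 ± 0.049, the inhibitor CST3 by 0.25 ± 0.057, CTSZ by 0.24 ± 0.045 and CTSC by 0.15 ± 0.043. CTSK, a cysteine protease known from osteoclasts, lay below the level at which genes are named and was picked after its values were seen. It fell by 1.1 on the log2 scale, from a mean of 3.36 ± 0.132 CPM (SD, n = 3) to 1.56 ± 0.0766 (edgeR adjusted p = 1.01e-07). Of 20 glycosidases and sulfatases 5 rose and 3 fell. GLA, which cleaves globotriaosylceramide, rose by 0.26 ± 0.062, whereas IDUA and SGSH, which degrade heparan sulfate, fell by 0.83 and 0.38. Of 19 membrane proteins 5 rose and 3 fell, with LAPTM4B up by 0.29 ± 0.052, CD63 by 0.27 ± 0.057, CLN3 by 0.18 ± 0.049 and LAPTM4A by 0.18 ± 0.044. MCOLN3, a channel related to MCOLN1 and also picked after its values were seen, fell by 0.94, from 3.5 ± 0.335 to 1.83 ± 0.238 CPM (SD, n = 3; edgeR adjusted p = 3.1e-06). The exons of ATP6V1F, NPC2, PPT1, LIPA, SGSH, IDUA, CLN3, CD63 and some others overlap exons of neighbouring genes on the opposite strand, so these counts carry the same limit as those of SQSTM1.

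**Figure D5:**
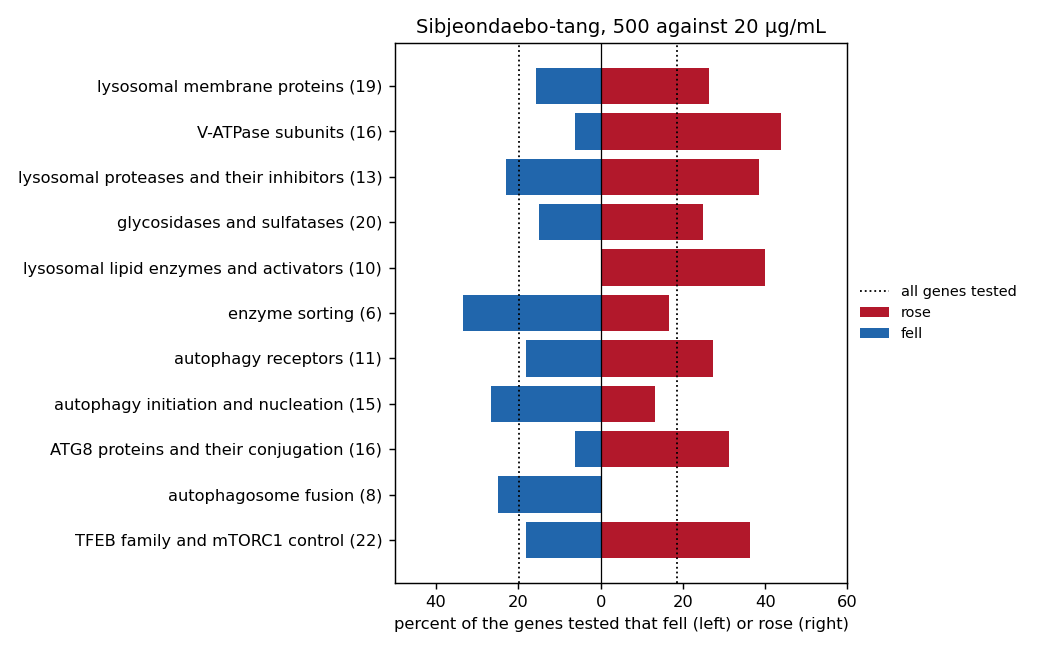
Percent of the tested genes of each of 11 lists (y axis, number tested in parentheses) that rose (red, to the right) or fell (blue, to the left) between 20 and 500 µg/mL of Sibjeondaebo-tang, with dotted lines at the shares of all genes tested, 18.5% higher and 19.9% lower. The V-ATPase bars reach 7 of 16 genes to the right and 1 to the left. Among abundant protein-coding genes, which the lines do not show, the shares were 32% higher and 19.8% lower, and no list was tested as a set.

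Among the regulators around TFEB and mTORC1, 8 of 22 tested rose and 4 fell under Sibjeondaebo-tang. The mTORC1 subunit MLST8 rose by 0.35 ± 0.055, the lysosomal GTPase RRAGA by 0.33 ± 0.049 and its anchor LAMTOR1 by 0.23 ± 0.048 on the log2 scale, and TSC1, part of the complex that restrains mTORC1, fell by 0.34. Of 15 genes of initiation and nucleation 2 rose, ATG101 by 0.25 ± 0.052 and ATG9A by 0.22 ± 0.042, and 4 fell, among them the lipid transfer protein ATG2B by 0.33 and the kinase ULK2 by 0.28. Of 16 genes of the ATG8 family and its conjugation 5 rose and 1 fell, with ATG4C up by 0.28 ± 0.073, GABARAP by 0.2 ± 0.043 and ATG3 by 0.16 ± 0.047, and ATG16L1 down by 0.13. Of 11 autophagy receptors and adaptors 3 rose and 2 fell. BNIP3, a receptor for mitochondria, rose by 0.25 ± 0.054 and NCOA4, the receptor for ferritin, by 0.18 ± 0.041, while the scaffold WDFY3 fell by 0.26 and CALCOCO2 by 0.13. Of 8 genes of fusion 2 fell and none rose, VPS39 and EPG5, each by 0.23. Of 6 genes of enzyme sorting NAGPA rose by 0.2 ± 0.072, and GNPTG and SORT1 fell by 0.34 and 0.15.

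Under Palmul-tang the genes of the lists that fell between low and high dose were SMPD1, the acid sphingomyelinase, by 0.28, GNPTG by 0.23, ULK2 by 0.21 and SORT1 by 0.19 on the log2 scale. Under Samul-tang BNIP3 rose by 0.34 ± 0.066 (SE, n = 2; edgeR adjusted p = 0.00322), and FLCN, which with its partners lets mTORC1 act on TFEB, fell by 0.33.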

How the data were processed

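The table holds expected counts per gene that, per the submitters' processing notes, were made with FastQC 0.11.9, Trim Galore 0.6.5, STAR 2.7.3a and RSEM 1.3.3 on GRCh38. The annotation release and the strand setting are not given in the sources used here. Of 270 columns, 30 matched the labels' library codes and 240 were not used. Totals ran from 23986637 to 35159898. The deposited expected counts were rounded and filtered with filterByExpr, which left 17701 genes. They were scaled by TMM (factors 0.923 to 1.051). In R 4.3.3, edgeR 4.0.16 fitted 1 mean per group over 30 libraries by glmQLFit, robust, and tested contrasts by glmQLFTest. The common dispersion was 0.00246, with 17 degrees of freedom left. P-values were adjusted by Benjamini-Hochberg over all genes, with a threshold of 0.05. The SE is the log2 change divided by the square root of F. In every contrast of this fit, those of Samul-tang included, the spread of a gene is that shared over all groups. The SE is therefore not that of the compared libraries alone. Sagunja-tang was not tested.

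Symbols were matched by Ensembl identifier. Coordinates, exon lengths and overlaps came from GENCODE and promoter windows from RefSeq. The members and lists were chosen with earlier results of these data known. All 9 members are named. From each other list up to 4 genes with the smallest adjusted p in Sibjeondaebo-tang, and up to 2 in each other tested formula, are named if they passed and their mean log2 CPM reached 2. A gene that this rule names in the list of glycosidases and sulfatases is not reported here. Likeness was ranked by Pearson r over group means of log2 CPM. The fit was also run on counts simulated with its own dispersions, so that run cannot show how well the model suits these data. Alternatives were DESeq2 1.42.0, RLE size factors, no filter, no robust estimation, only the compared groups, a replicate block and leaving out each library. The wortmannin treatment named in the series text was not analysed here.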

Additional observations from a re-analysis of the deposited data

Results flagged for a closer look

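The effects of dose differed between formulas for 5 of the 9 genes by a test of the difference itself in edgeR's model. In this test of Sibjeondaebo-tang against Palmul-tang 14.9% of all genes tested passed. In the same direction 5.59% of all genes and 10.3% of the abundant protein-coding genes did. The log2 change from low to high dose under Sibjeondaebo-tang exceeded that under Palmul-tang by 0.357 for CTSD, 0.282 for TFEB, 0.224 for LAMP1, 0.214 for SQSTM1 and 0.188 for CTSB. It exceeded that under Samul-tang by 0.248 for CTSD and 0.237 for SQSTM1, where 6.34% of all genes tested passed. All of these differences rest on the same 3 high-dose libraries of Sibjeondaebo-tang. TFEB had dose changes of opposite sign under Sibjeondaebo-tang (0.098) and Palmul-tang (-0.184), neither of which passed alone. The SQSTM1 and TFEB differences from Palmul-tang did not pass without replicate 1 of the low dose of Palmul-tang (adjusted p = 0.0517 and 0.0664 in edgeR's model). The TFEB difference was also lost without replicate 1 of the high dose (0.055) or replicate 3 of the low dose (0.0552) of Palmul-tang, without replicate 3 of the low dose of Sibjeondaebo-tang (0.06) and with DESeq2 (0.0742).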

How the results depend on the processing

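Of 40 calls of members in 8 comparisons, 28 passed under every alternative run and 12 were lost under at least 1, and no called change turned its sign. The share of all genes that passed under each alternative is not given in this section. Whether a count of members moved together with that share is therefore not shown. With only the compared groups in the fit, 1 member passed between the doses of Palmul-tang in place of 2. HEXA (edgeR adjusted p = 0.0629) and CTSB (0.0869) then no longer passed between the doses of Sibjeondaebo-tang, nor CTSD (0.0601) between those of Samul-tang. With no filter CTSB was also lost for Sibjeondaebo-tang (0.0611). Leaving out single libraries removed CTSB or HEXA, or both, in some fits for Sibjeondaebo-tang, and no other member. Leaving out 1 library at a time gave 1 to 3 members between the doses of Samul-tang, 1 to 2 for Palmul-tang, and 3 to 5 for the difference of the dose changes of Sibjeondaebo-tang and Palmul-tang. The lone library left in some Samul-tang groups is then assumed to vary like the other groups.

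Some changes that were not called turned their sign. Between the doses of Palmul-tang, LAMP2 gave -0.0016 on the log2 scale with no filter. Leaving out libraries gave ranges from -0.0371 to 0.0343 for LAMP2 and from -0.0401 to 0.0499 for LAMP1 there. For Samul-tang they ran from -0.0151 to 0.0874 for LAMP1, from -0.113 to 0.0777 for LAMP2, from -0.0954 to 0.0405 for MCOLN1 and from -0.124 to 0.0229 for TFEB, and for Sibjeondaebo-tang from -0.029 to 0.0976 for MCOLN1. Against vehicle at the high dose they ran from -0.0603 to 0 for CTSB under Sibjeondaebo-tang, from -0.0037 to 0.0573 for HEXA under Palmul-tang and from -0.0661 to 0.0358 for CTSD under Samul-tang. The cause was not tested.

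The labels give the groups shared replicate numbers, and same-numbered libraries did not deviate together (median correlation 0.00615, from -0.122 to 0.0886 over 111 pairs, against -0.148 to 0.137 for other libraries). With the replicate number as a block, 6 members passed between the doses of Sibjeondaebo-tang, as without it, and no count of members changed. LAMP1 between the doses of Palmul-tang then stood at 0.0007. Without robust estimation 8 members passed between vehicle and high-dose Sibjeondaebo-tang in place of 7, TFEB being added (adjusted p = 0.0383). Depth limits MCOLN1 and TFEB most, at 10.7 to 15.9 and 11.2 to 15.4 CPM.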
